A study of Mus musculus with 22 samples.

Results

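The 9 genes described here, P2ry12, P2ry13, Csf1r, Cx3cr1, Tmem119, C1qa, C1qb, Trem2 and Siglech, are markers of microglia, and they were followed in RNA of the mouse prefrontal cortex (PFC). They were chosen by name, as the entries of the count table whose Ensembl identifier belonged to these symbols. They are 9 of the 39056 genes counted, and all 9 were among the 14072 genes with at least 500 counts in all and a count in at least 3 of the 22 libraries. Each of 11 mice gave a TRAP library, which holds the RNA pulled down with tagged ribosomes (translating ribosome affinity purification), and a total-RNA library of the same homogenate. Mice received saline (Control, n = 3), ethanol at a daily dose of 2 g/kg (EtOH, n = 4) or the same ethanol with the PARP inhibitor ABT-888 at 25 mg/kg on the fourth day only (EtOH + ABT-888, n = 4). There were 2 intraperitoneal injections per day for 4 days, and tissue was taken 2 hours after the last injection.

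All mice, controls included, were male, 8 to 12 weeks old, on a C57BL/6J background, and carried both transgenes of the TRAP system. In these mice the CaMKIIα promoter drives the tetracycline transactivator tTA, which in turn drives the ribosomal protein Rpl10a fused to EGFP from a tetO promoter. The tag is therefore made in CaMKIIα-expressing neurons and not by design in microglia, so that the total-RNA libraries are those in which microglial RNA was measured directly. Reads assigned to genes ranged from 6570957 to 22002618 per TRAP library and from 22132534 to 32421392 per total-RNA library. At these depths 1 read was worth 0.0293 to 0.0450 CPM (counts of a gene scaled by library size) in total-RNA and 0.0464 to 0.15 CPM in TRAP, so low TRAP values rest on a few reads. In bulk tissue, fewer cells of a type and less RNA per cell cannot be told apart.

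By their positions in the mm10 genome, P2ry12 (chr3:59216272-59262871) and P2ry13 (chr3:59207892-59210882) are neighbours on the minus strand, both within the span of Med12l on the plus strand, with 9 and 0 exon bases shared with it. C1qb (chr4:136880129-136886187) and C1qa (chr4:136895917-136898803) are close together on the minus strand, with C1qc, the gene of the C chain, between them. Tmem119 (chr5:113793729-113800516, minus), Siglech (chr7:55768178-55778925, plus) and Trem2 (chr17:48346401-48354147, plus) overlap no other annotated gene. Cx3cr1 (chr9:119901616-120069879, minus) spans other genes and shares 78 exon bases with Gm33858. Csf1r (chr18:61100598-61132149, plus) shares 873 of its 5774 exon bases with Hmgxb3 on the opposite strand, and whether the counting used strand is not given in the sources used here. All 9 are protein-coding genes.

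Microglia are the resident macrophages of the brain parenchyma. They depend on signaling through the Csf1 receptor for survival, and they follow neuronal activity and damage through purinergic receptors and through the neuronal chemokine fractalkine. They are the main source of C1q in the brain, the initiating complex of the classical complement pathway, which tags synapses and debris for removal. P2ry12, Tmem119, Siglech and Cx3cr1 are known as homeostatic markers that microglia lower when they become reactive.

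In total-RNA of Control mice the 9 genes were well measured, with 172 to 2874 reads per gene and library. Compared per kilobase of exon, C1qb was the most abundant, at 25.0 ± 2.30 CPM per kb (SD, n = 3), followed by C1qa at 19.9 ± 1.77, P2ry12 at 18.6 ± 0.489 and Csf1r at 16.1 ± 0.517 CPM per kb. Cx3cr1 lay at 12.2 ± 0.889 CPM per kb, P2ry13 at 5.14 ± 0.525, Tmem119 at 4.82 ± 0.0142, Siglech at 3.62 ± 0.105 and Trem2 at 1.29 ± 0.177. The ranges of the 3 mice overlapped between the neighbours C1qa and P2ry12 and between P2ry13 and Tmem119, and between no other neighbours in this order. In EtOH the order of the same per-length levels was C1qb, C1qa, Csf1r, P2ry12, Cx3cr1, Tmem119, Siglech, P2ry13 and Trem2, from 24.8 ± 10.8 down to 0.399 ± 0.0795 CPM per kb (n = 4). There the ranges of the 4 mice overlapped between all neighbours except C1qa and Csf1r, Csf1r and P2ry12, and P2ry13 and Trem2, and in EtOH + ABT-888 between all neighbours. C1qa, at 20.8 ± 7.09 CPM per kb, and P2ry12, at 3.68 ± 1.81, which overlapped in Control, no longer overlapped in EtOH.

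Most of the treatment differences in these genes were found between EtOH and Control in total-RNA, where 7 of the 9 genes fell and the C1q genes did not pass the test. The 7 were both purinergic receptors, both receptors for growth factor and chemokine, and all 3 of the remaining surface markers. Of all 14072 genes tested, 8.6% were lower in EtOH at an adjusted p under 0.05 (edgeR quasi-likelihood test, Benjamini-Hochberg), and for 15.8% all EtOH values lay below all Control values, against 7 of 9 by either count here. The 9 genes were chosen with earlier results of these data known, so these shares stand side by side as a description. The median log2 fold change of the 9 genes was −1.53, beside 0.001 over all genes tested. All 7 calls held without any single library, but when the spread was estimated over all 22 libraries together, TRAP included, P2ry12 (adjusted p = 0.0317) and P2ry13 (0.0477) passed and the other 5 did not (0.178 to 0.368, edgeR).

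**Figure D1:**
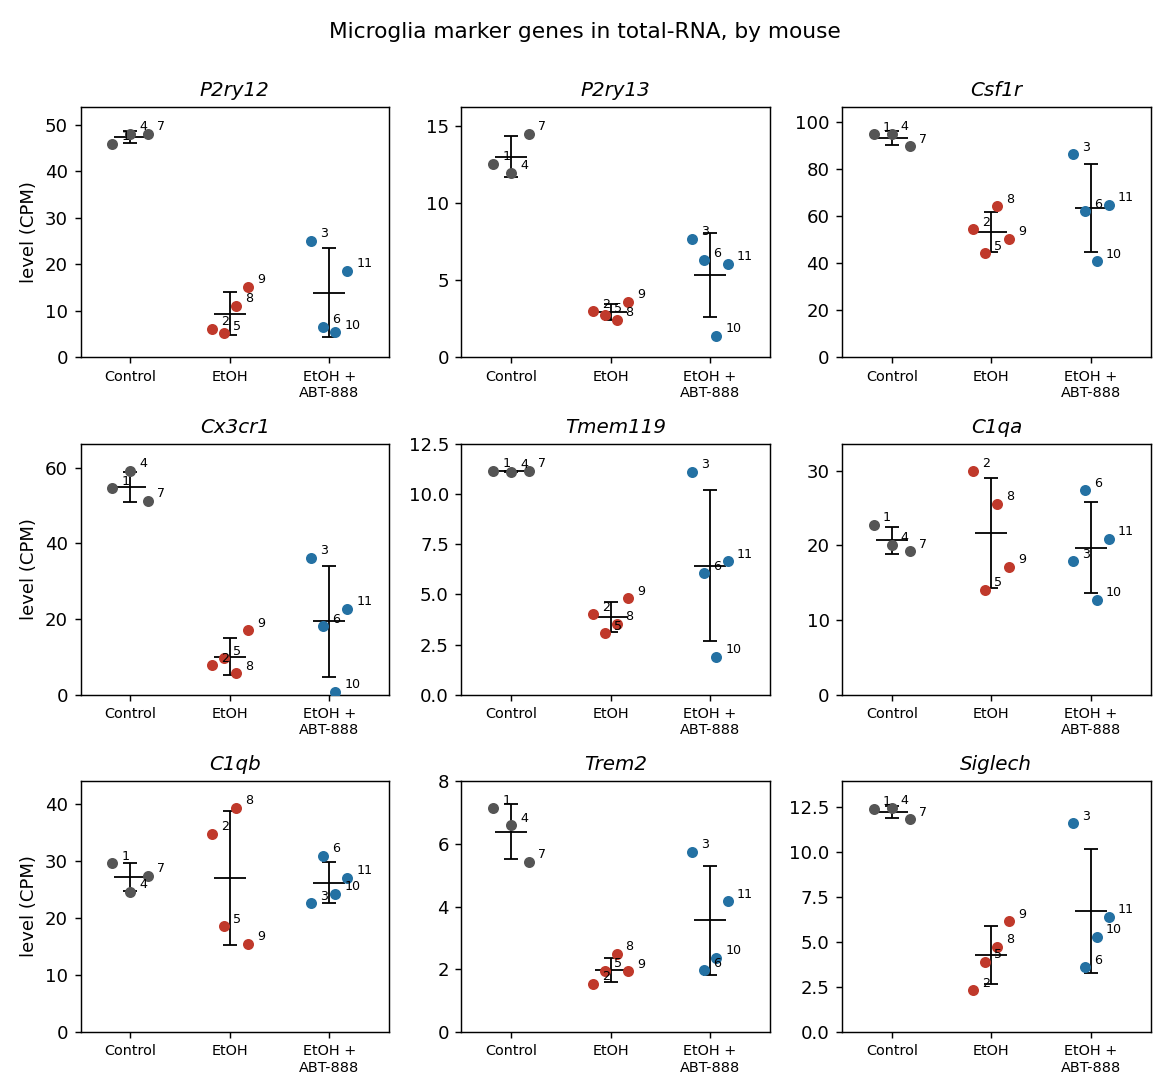
Level of each of the 9 genes (CPM, y axis from 0) in the total-RNA libraries of Control, EtOH and EtOH + ABT-888 mice. Points are single mice, numbered by animal, and the bar with whiskers is the mean ± SD. For 7 genes all 4 EtOH mice lie below all 3 Control mice, for C1qa and C1qb the groups overlap, and mouse 3 of the EtOH + ABT-888 group lies close to Control for Tmem119 and Siglech.

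P2ry12, the ADP receptor through which microglia extend processes toward injured cells, was at 45.9, 48.1 and 48.0 CPM in the Control mice. In the EtOH mice it was at 6.10, 5.20, 11.1 and 15.1 CPM, and the groups were far apart. It fell by 2.35 on the log2 scale (SE 0.280, adjusted p = 0.000419, edgeR). P2ry13, a related ADP receptor, was at 12.5, 11.9 and 14.5 CPM in Control and at 2.99, 2.71, 2.44 and 3.60 CPM in EtOH. The EtOH mice lay close together, and P2ry13 had the smallest adjusted p of the 9 genes, 3.36e-05, with a log2 fold change of −2.15 (SE 0.179, edgeR).

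Cx3cr1, the receptor for fractalkine, was at 54.5, 59.1 and 51.1 CPM in Control. It was at 7.74, 9.58, 5.66 and 17 CPM in EtOH. Its log2 fold change of −2.47 was the lowest of the 9 (SE 0.264, adjusted p = 0.000296, edgeR). Csf1r, the receptor for the survival factors Csf1 and Il34, had the smallest log2 fold change of the 7 and was at 94.7, 95.1 and 89.7 CPM in Control and at 54.5, 44.1, 64.2 and 50.5 CPM in EtOH. The groups still did not overlap, and the log2 fold change was −0.80 (SE 0.124, adjusted p = 0.00152, edgeR). Whether the fall of Csf1r differed from that of the other genes was not tested.

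Tmem119, a transmembrane protein used to tell microglia from other macrophages, was at 11.2, 11.1 and 11.2 CPM in Control and at 4.02, 3.06, 3.54 and 4.81 CPM in EtOH. It fell by 1.53 on the log2 scale (SE 0.181, adjusted p = 0.000384, edgeR). Trem2, the lipid-sensing receptor that signals through Tyrobp, was at 7.15, 6.6 and 5.43 CPM in Control and at 1.52, 1.95, 2.48 and 1.93 CPM in EtOH. The EtOH mice were close together, and the log2 fold change of Trem2 was −1.70 (SE 0.22, adjusted p = 0.000603, edgeR). Siglech, a sialic acid-binding lectin of microglia, was at 12.4, 12.5 and 11.8 CPM in Control and at 2.32, 3.91, 4.72 and 6.16 CPM in EtOH. EtOH mouse 2 had the lowest value and mouse 9 the highest, and the log2 fold change was −1.53 (SE 0.252, adjusted p = 0.00212, edgeR).

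C1qa and C1qb, which encode the A and B chains of C1q, did not pass the test, and the difference between them and the other 7 genes was not tested. C1qa was at 22.7, 20.1 and 19.2 CPM in Control and at 30.0, 14, 25.5 and 17.1 CPM in EtOH. The Control values lay inside the EtOH range, and the log2 fold change was 0.07 (adjusted p = 0.846, edgeR). C1qb was at 29.5, 24.6 and 27.4 CPM in Control and at 34.7, 18.5, 39.2 and 15.4 CPM in EtOH, with a log2 fold change of −0.01 (adjusted p = 0.986, edgeR). For both genes EtOH mice 2 and 8 lay above all Control mice, and EtOH mice 5 and 9 below them. The ratio of C1qa to P2ry12 within a library, in CPM, was 0.495, 0.417 and 0.400 in Control and 4.92, 2.70, 2.31 and 1.13 in EtOH, so these ratios did not overlap. This pair was chosen after the values were seen, and its difference was not tested.

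**Figure D2:**
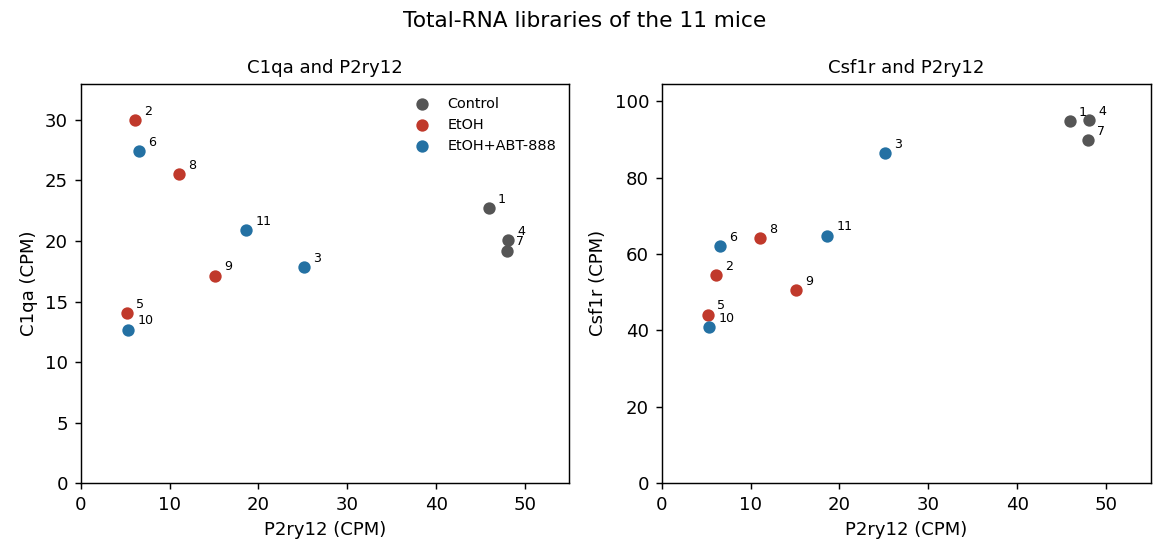
C1qa (left, y axis, CPM) and Csf1r (right, y axis, CPM) against P2ry12 (x axis, CPM) in the 11 total-RNA libraries, colored by treatment and numbered by mouse. Across the range of P2ry12 from 5.20 to 48.1 CPM, Csf1r is highest where P2ry12 is highest, while C1qa in the Control mice, at 19.2 to 22.7 CPM, lies in the middle of its range in the other mice.

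Across the 11 total-RNA libraries, the log2 level of 7 of the genes followed the mean of the other members closely, with Pearson r from 0.685 for Siglech to 0.987 for Csf1r. For C1qa r was 0.268 and for C1qb 0.138. These values describe libraries that share treatment groups and a common scaling. Among genes outside the 9, the log2 levels most like their mean over the 11 total-RNA libraries were those of Camk1 (r = 0.986), Dok5 (0.979), Pycrl (0.974), Mapk11 (0.966) and the microglial selectin ligand Selplg (0.965). Over all 22 libraries they were Emp2 (0.984), Slc38a3 (0.981) and the glial potassium channel Kcnj10 (0.98). With Spearman's rho, 4 and 3 of the 10 most alike genes of the respective sets were among the 10 by Pearson's r.

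RefSeq promoter sequences (GRCm38.p6, the 250 bases before the start) were taken for 6 of the 9 genes, with Csf1r left out by its chromosome. They were searched on both strands for GAGGAA and GGAAGT. Both are spellings of the core bound by PU.1 (Spi1), the transcription factor that defines the macrophage lineage, and they can share bases where they follow each other. P2ry12, P2ry13 and Cx3cr1 are shown as the genes that fell most in EtOH and C1qb as a gene that did not pass the test, 5′ to 3′ on the gene's own strand, with matches on either strand in capitals.
P2ry12, chr3:59262986-59263235, minus strand: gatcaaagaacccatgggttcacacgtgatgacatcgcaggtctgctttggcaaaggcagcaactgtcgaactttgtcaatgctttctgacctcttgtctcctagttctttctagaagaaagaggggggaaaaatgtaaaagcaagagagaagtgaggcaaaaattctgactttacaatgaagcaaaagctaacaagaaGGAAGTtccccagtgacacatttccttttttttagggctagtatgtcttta
P2ry13, chr3:59210883-59211132, minus strand: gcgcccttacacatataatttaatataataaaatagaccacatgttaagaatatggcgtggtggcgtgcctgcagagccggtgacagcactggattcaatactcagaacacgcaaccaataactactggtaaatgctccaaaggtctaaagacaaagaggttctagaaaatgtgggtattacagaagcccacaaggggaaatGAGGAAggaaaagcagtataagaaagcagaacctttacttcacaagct
Cx3cr1, chr9:120068297-120068546, minus strand: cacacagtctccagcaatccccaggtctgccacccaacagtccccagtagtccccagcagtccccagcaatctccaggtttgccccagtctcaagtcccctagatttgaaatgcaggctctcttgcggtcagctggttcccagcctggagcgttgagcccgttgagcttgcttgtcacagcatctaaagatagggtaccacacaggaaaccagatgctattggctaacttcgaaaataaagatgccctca
C1qb, chr4:136886201-136886450, minus strand: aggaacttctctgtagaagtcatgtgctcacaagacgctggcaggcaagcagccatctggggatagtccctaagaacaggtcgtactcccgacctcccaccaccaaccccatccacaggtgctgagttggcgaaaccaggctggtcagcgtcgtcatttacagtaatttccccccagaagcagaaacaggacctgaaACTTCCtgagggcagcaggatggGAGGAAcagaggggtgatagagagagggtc
P2ry12 held GGAAGT from 51 bases before the start, and P2ry13 held GAGGAA from 48 bases before it. C1qb held GAGGAA at 30 bases and GGAAGT, on the other strand, at 53 bases before the start, and Cx3cr1 held no match in this window. Of the 6 genes, 5 held either string, Trem2 and Siglech included. Of 32851 promoters in the same table, 23.3% held GAGGAA, 19.7% held GGAAGT and 36.7% held either. A match of letters is a description and not a binding site, and genes that fell and a gene that did not pass the test both held matches.

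In EtOH + ABT-888 against Control, none of the 9 genes passed the test in total-RNA (edgeR, quasi-likelihood), while 5 had an unadjusted p under 0.05, as did 2243 of all 14072 genes. With edgeR's exact test 1 of the 9 passed, where 201 of all genes were called lower, and with DESeq2 1 passed, where 228 were. In the quasi-likelihood test 12 genes, 0.0853% of all tested, were called lower. For 6 of the 9 genes all EtOH + ABT-888 mice lay below all Control mice, against 8.62% of all genes. The 4 mice differed widely. P2ry12 was at 25.1, 6.58, 5.37 and 18.6 CPM in mice 3, 6, 10 and 11, with a log2 fold change of −1.76 against Control (SE 0.438, adjusted p = 0.109, edgeR). P2ry13 was at 7.67, 6.28, 1.39 and 6.05 CPM, with a log2 fold change of −1.28 (SE 0.406, adjusted p = 0.178, edgeR). Both genes were highest in mouse 3 and lowest in mouse 10.

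Cx3cr1 was at 36.1, 18, 0.730 and 22.6 CPM in mice 3, 6, 10 and 11, with a log2 fold change of −1.5 against Control (SE 0.707, adjusted p = 0.332, edgeR). The value of mouse 10 rests on 22 reads and was the lowest Cx3cr1 level of all 11 total-RNA libraries. Csf1r was at 86.3, 62.1, 40.8 and 64.8 CPM, Tmem119 at 11.1, 6.05, 1.89 and 6.65 CPM, and Siglech at 11.6, 3.59, 5.31 and 6.41 CPM. Trem2 was at 5.74, 1.97, 2.36 and 4.17 CPM, with mouse 3 inside the Control range. C1qa, at 17.8, 27.4, 12.7 and 20.9 CPM, and C1qb, at 22.5, 30.8, 24.2 and 27.0 CPM, again overlapped Control.

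Expressed as a percent of the Control mean, the median over the 7 genes other than the C1q genes was 89.9% in mouse 3, 52.4% in mouse 11, 32.8% in mouse 6 and 17% in mouse 10. The same median lay between 23% and 31.9% in the 4 EtOH mice, so that EtOH + ABT-888 mice were found above and below all EtOH mice. Without mouse 3, 4 genes passed the test against Control (P2ry12, adjusted p = 0.0134; Csf1r, 0.0314; Trem2, 0.0465; Siglech, 0.0130), and without mouse 10, 2 did (P2ry13, adjusted p = 0.0236; Cx3cr1, 0.0320), all by edgeR. Of all 14072 genes, 430 were called lower without mouse 3 and 68 without mouse 10, against 12 with all 4 mice. Against EtOH, none of the 9 genes passed in total-RNA, where 0% of all genes tested were called. An unadjusted p under 0.05 (edgeR) was found for 2 of the 9, P2ry13 and Trem2 (log2 difference 0.86, SE 0.338), and for 269 of all 14072 genes. The log2 differences between EtOH + ABT-888 and EtOH were 0.58 for P2ry12 (SE 0.469), 0.87 for P2ry13 (SE 0.397) and 0.96 for Cx3cr1 (SE 0.686), each with an adjusted p of 1 (edgeR), and the groups overlapped for all 9 genes. When a library was left out these differences lay between 0.13 and 0.91 for P2ry12, 0.64 and 1.19 for P2ry13 and 0.47 and 1.36 for Cx3cr1, each lowest without EtOH + ABT-888 mouse 3. A p that misses the threshold in groups this variable does not show that the treatments act alike.

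In TRAP libraries the 9 genes were far below total-RNA of the same mice. In Control, all 9 were lower, with log2 fold changes from −2.86 for Tmem119 to −4.78 for Siglech, where 30.4% of all genes tested were lower (edgeR). In EtOH all 9 were lower, from −2.08 for C1qa to −4.82 for P2ry12, where 26.5% of all genes were lower. For C1qa the TRAP and total-RNA libraries of EtOH mice overlapped, and its call was lost in 3 of 8 fits that each left out a library (adjusted p = 0.0602, 0.0601 and 0.0558, edgeR, without total-RNA mouse 2, TRAP mouse 8 and TRAP mouse 9). Without TRAP mouse 2 the log2 fold change of C1qa was −3.39, and that of Tmem119, −2.28 with all mice, was −3.71. In EtOH + ABT-888, 7 of 9 were lower, where 21.5% of all genes were lower, and Cx3cr1 (log2 fold change −2.73, adjusted p = 0.0794) and Trem2 (−1.55, adjusted p = 0.0515) did not pass. With the mouse as replicate block both passed (adjusted p = 0.000458 and 0.00587, edgeR), and both also passed with no filter on low counts and in the single fit over all 22 libraries. Cx3cr1 passed without total-RNA mouse 10 as well (adjusted p = 0.023, edgeR). Trem2 passed without TRAP mouse 3 (log2 fold change −2.28, adjusted p = 0.00758, edgeR), and with edgeR's exact test, DESeq2 and RLE factors (adjusted p = 0.024, 0.0233 and 0.0461). The call of Siglech in this group (log2 fold change −2.79, adjusted p = 0.0233, edgeR) was lost without total-RNA mouse 3 (adjusted p = 0.0684) or TRAP mouse 6 (0.0579, edgeR), and without TRAP mouse 3 its log2 fold change was −4.94.

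**Figure D3:**
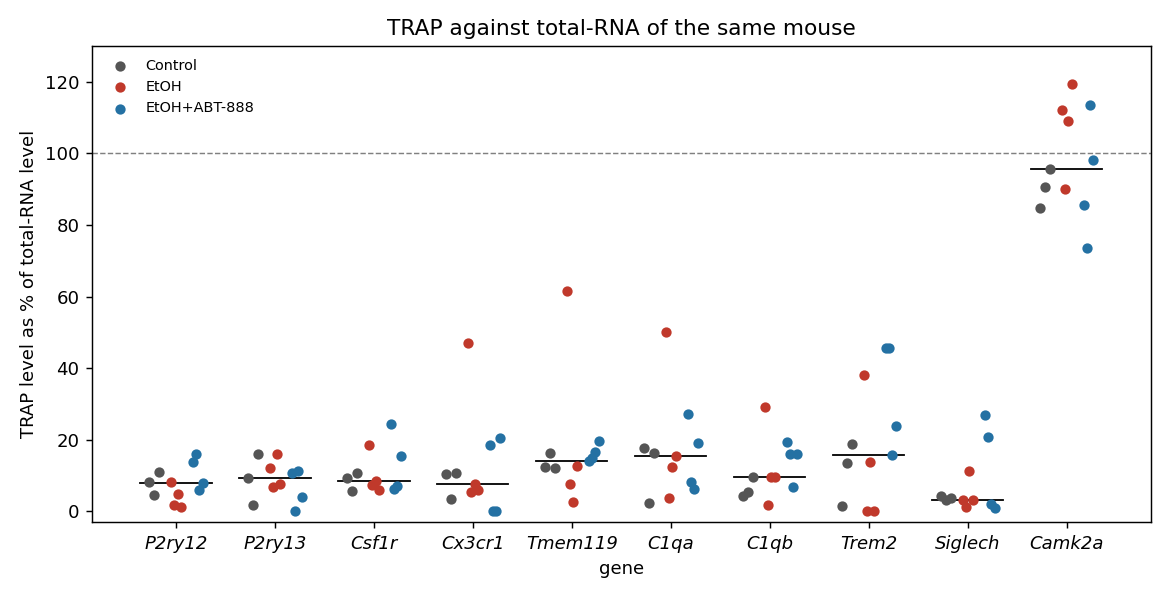
TRAP level as a percent of the total-RNA level of the same mouse (y axis) for the 9 genes and for Camk2a (x axis). Points are the 11 mice, colored by treatment, the short line is their median, and the dashed line marks 100%. The medians of the 9 genes lie between 3.31% and 15.7%, and that of Camk2a at 95.7%.

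Mouse by mouse, the TRAP level was below the total-RNA level in 11 of 11 mice for each of the 9 genes. The median over mice was 3.31% of the total-RNA level for Siglech, 7.81% for Cx3cr1, 8.03% for P2ry12, 8.58% for Csf1r and 9.36% for P2ry13. It was 9.72% for C1qb, 14% for Tmem119, 15.5% for C1qa and 15.7% for Trem2. Camk2a, the gene whose promoter drives the tag, had a median of 95.7% (73.7 to 119.5%) and was below total-RNA in 7 of 11 mice. Of the 9 excitatory neuron markers, 1 was higher and 7 were lower in TRAP in Control, where 29.5% of all genes tested were higher. Of the 9 inhibitory neuron markers, 3 were higher (Gad1, Gad2 and Slc32a1, the last with a log2 fold change of 2.52) and 4 lower, and their summed level was 1856 to 1976 CPM in TRAP and 939.3 to 994.8 CPM in total-RNA. All 10 astrocyte, 10 oligodendrocyte lineage and 11 endothelial and pericyte markers tested were lower in TRAP in Control, with median log2 fold changes of −3.11, −2.94 and −3.0, beside −3.59 for the 9 microglia genes and 0.02 over all genes.

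The highest of these percents came from a few libraries. In EtOH mouse 2, Tmem119 in TRAP was at 61.6%, C1qa at 50.2% and Cx3cr1 at 47.0% of total-RNA, the highest of the 11 mice for each. Counts of 0 were recorded for P2ry13 in TRAP of EtOH + ABT-888 mouse 6, for Cx3cr1 in mice 6 and 10 of the same group, and for Trem2 in EtOH mice 5 and 9. At a limit of 3 counts, these allow up to 0.450 CPM in mouse 6, 0.158 CPM in mouse 10, 0.139 CPM in mouse 5 and 0.204 CPM in mouse 9. Such limits cover counting error only.

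Between EtOH and Control within TRAP, 1 of the 9 genes fell, P2ry12, where 2.47% of all genes tested were called lower. It was at 3.84, 2.22 and 5.29 CPM in Control (36, 40 and 93 reads) and at 0.509, 0.0928, 0.541 and 0.204 CPM in EtOH (7, 2, 11 and 3 reads). The groups did not overlap, as for 11.9% of all genes in this direction, and the log2 fold change was −3.46 (SE 0.609, adjusted p = 0.0113, edgeR). The call was lost without Control mouse 1 (adjusted p = 0.0583) or Control mouse 7 (0.0822, edgeR). For the other 8 genes the groups overlapped.

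P2ry13 and Cx3cr1 had log2 fold changes in TRAP of −2.00 (adjusted p = 0.157) and −1.69 (adjusted p = 0.155, edgeR). Without Control mouse 7 the value of P2ry13 was −1.10 (adjusted p = 0.62, edgeR). Without EtOH mouse 2, whose Cx3cr1 level of 3.64 CPM stood above the other EtOH mice at 0.442 to 1.02 CPM, Cx3cr1 was called as well (log2 fold change −2.74, adjusted p = 0.0240, edgeR). C1qa and C1qb had values above 0, 1.07 and 1.11 on the log2 scale (adjusted p = 0.502 and 0.438, edgeR), and EtOH mouse 2 was again the highest, at 15.1 CPM for C1qa against 0.511 to 3.15 CPM in the other EtOH mice. Without it the values for C1qa and C1qb were −0.24 and 0.08.

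**Figure D4:**
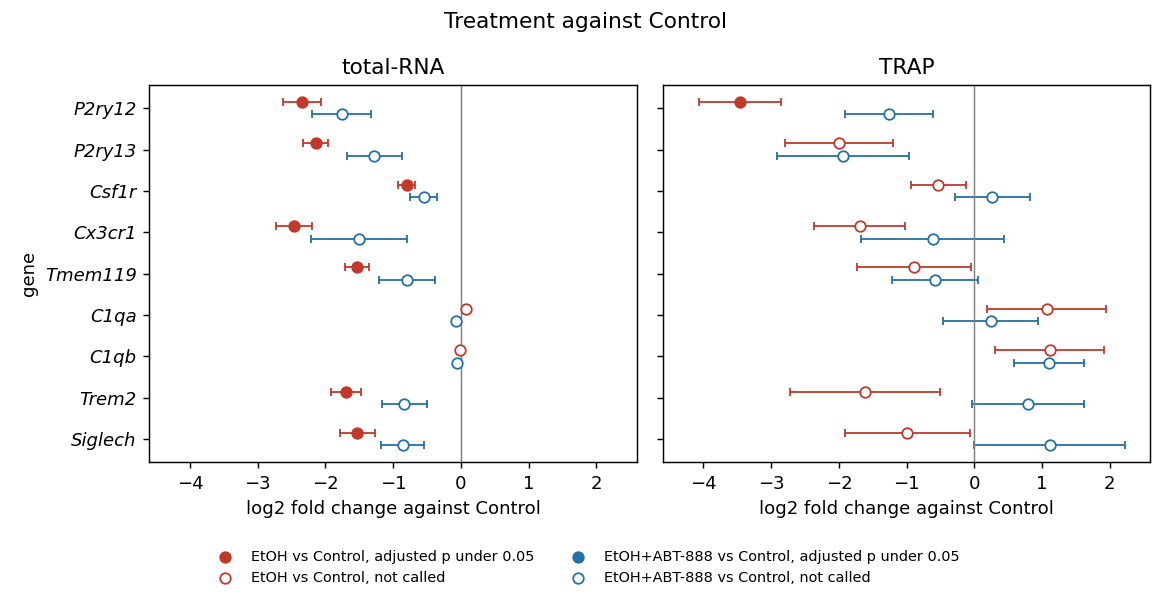
Log2 fold change against Control (x axis) of the 9 genes (y axis) in total-RNA (left) and TRAP (right), for EtOH and for EtOH + ABT-888. Whiskers are the SE of the edgeR fit, left out for values within 0.1 of 0, and filled points passed an adjusted p of 0.05. Filled points are 7 genes of EtOH in total-RNA and P2ry12 of EtOH in TRAP.

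In TRAP, EtOH + ABT-888 gave no called gene among the 9 against Control, where 0.291% of all genes were called lower, and none against EtOH, where 0% were called and 136 had an unadjusted p under 0.05 (edgeR). Against EtOH, 2 of the 9 had such an unadjusted p, P2ry12 (log2 difference 2.20, SE 0.841) and Trem2 (2.40, SE 1.07). P2ry12 was at 3.44, 1.05, 0.317 and 1.5 CPM in mice 3, 6, 10 and 11, again highest in mouse 3 and lowest in mouse 10. A model over all 22 libraries asked whether the treatment effect differed between TRAP and total-RNA. For EtOH none of the 9 genes passed this test, where 0.0213% of all genes were called and 685 had an unadjusted p under 0.05. For EtOH + ABT-888 none passed either, where 0% of all genes were called and 476 had an unadjusted p under 0.05. The fall of P2ry12 in TRAP was thus not shown to differ from that in total-RNA.

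Other microglia genes were examined as a list of 36, of which 34 were tested. In EtOH against Control in total-RNA, 13 were lower and 2 higher, and 19 were not called, with a median log2 fold change of −0.41. Of all genes tested, 9.04% were called higher in this comparison. Among those with the smallest p, Gpr34, a lysophosphatidylserine receptor, fell from 16 ± 2.45 to 1.51 ± 1.34 CPM (log2 fold change −3.47, adjusted p = 0.000384, edgeR). Slc2a5, the fructose transporter, fell from 4.49 ± 0.470 to 0.940 ± 0.367 CPM. Olfml3, a secreted matrix protein, had a log2 fold change of −1.78 (adjusted p = 0.000624, edgeR). Both genes that rose are named for completeness after their values were seen, the Fc receptor Fcgr3 (log2 fold change 0.90) and the transcription factor Runx1 (1.13).

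**Figure D5:**
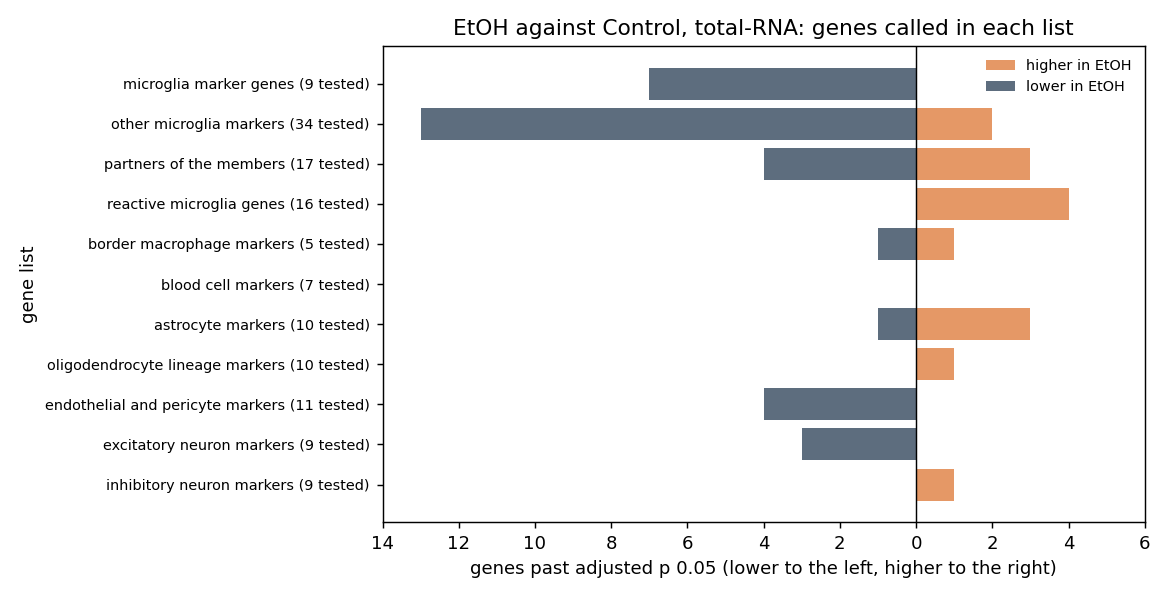
Number of genes past an adjusted p of 0.05 (x axis, lower to the left of 0, higher to the right) in EtOH against Control in total-RNA, for the 9 genes and 10 other lists (y axis, with the number tested). The 9 genes have 7 lower and 0 higher, other microglia markers 13 lower and 2 higher, and reactive microglia genes 0 lower and 4 higher.

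Genes that encode ligands, adaptors, ectonucleotidases and complement partners of the 9 moved in both directions, with 4 of 17 tested lower and 3 higher, against 8.6% and 9.04% of all genes. This list of 22 shares 4 genes with the 36 other microglia genes, C1qc, Itgam, Tgfbr1 and Tyrobp, and Itgam, which fell, is counted in both. The fractalkine gene Cx3cl1, ligand of Cx3cr1, fell from 650 ± 49.3 to 421 ± 39.0 CPM (log2 fold change −0.63, adjusted p = 0.00199, edgeR). Entpd1, which breaks down extracellular ATP and ADP, the agonists of purinergic receptors, fell by 0.87 on the log2 scale, while Nt5e, which makes adenosine from AMP, rose by 0.98. The complement gene C4b, which acts just after C1q in the classical pathway, rose from 8.24 ± 0.394 to 20.5 ± 9.37 CPM (log2 fold change 1.32, adjusted p = 0.00603, edgeR). Of the Csf1r ligands, named after their values were seen, Il34 had a log2 fold change of −0.56 (adjusted p = 0.0110) and Csf1 of 0.45 (adjusted p = 0.0448, edgeR).

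Of 25 listed reactive microglia genes 16 were tested, and the others, cytokine genes among them, did not pass the filter on low counts. Of the 16, 4 were higher, against 9.04% of all genes, none was lower and 12 were not called, with a median log2 fold change of 0.43. Ch25h, which makes an oxysterol, rose from 0.159 ± 0.193 to 3.41 ± 1.95 CPM, and the surface antigen Cd83 rose from 10.2 ± 1.22 to 15.3 ± 2.45 CPM, without overlap. For the other 2, Ccl2 and Cd14, the groups overlapped. In EtOH + ABT-888 against Control in total-RNA, where 37 of all 14072 genes were called in either direction, none of the 34 other microglia genes, 17 partners or 16 reactive genes was called (edgeR), and 12, 7 and 6 of them had an unadjusted p under 0.05.

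Markers of other cells were compared between EtOH and Control in the same total-RNA libraries, where 8.6% of all genes were called lower and 9.04% higher. Of the 5 border macrophage genes tested, Lyve1 rose, with overlap of the groups, and Cd74 fell. The summed level of the 10 genes of that list was 22.93 to 32.35 CPM in Control and 15.6 to 26.2 CPM in EtOH, with no gene at 0 in every library of a group. None of 7 blood cell genes tested was called (edgeR, 2 with an unadjusted p under 0.05), and their list summed to 66.3 to 123 CPM in Control and 58.3 to 121.5 CPM in EtOH.

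Of 10 astrocyte genes, Gjb6, Sox9 and, with overlap, Gfap rose and Aqp4 fell, and their summed level was 7191 to 8045 CPM in Control and 6723 to 8629 CPM in EtOH. Of 10 oligodendrocyte lineage genes the myelin gene Mobp rose, with sums of 2478 to 2761 and 2386 to 2980 CPM. Of 11 endothelial and pericyte genes 4 fell (Rgs5, Tek, Itm2a and Flt1), against 13 of 34 other microglia genes that fell, with endothelial and pericyte sums of 179.8 to 208.6 and 138.8 to 209.6 CPM. Sums of these 3 lists overlapped between the groups. Those of the 9 microglia genes did not, at 278.4 to 290.7 CPM in Control and 103.0 to 158.9 CPM in EtOH, nor did those of the other microglia genes, at 632.8 to 677.6 and 445.8 to 560.7 CPM, and of the partners, at 995.9 to 1122 and 771.1 to 880.8 CPM. In the sum of the partners Cx3cl1 alone had mean levels of 650 and 421 CPM, so most of that difference lay in 1 gene. Of 9 excitatory neuron genes 3 fell, Neurod6 and Nrgn among them, and 8 had a log2 fold change below 0, with sums of 4473 to 5423 and 4291 to 5153 CPM. Gad2 rose among 9 inhibitory neuron genes, whose sums did not overlap either, at 939.3 to 994.8 CPM in Control and 1027 to 1095 CPM in EtOH. The part of these cell types in the values of the 9 genes was not tested.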

How the data were processed

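TRAP and total-RNA of the PFC of 11 mice were sequenced after rRNA depletion, as 22 libraries. The authors aligned paired-end reads to mm10 with STAR and deposited raw counts per gene from featureCounts with an ENSEMBL annotation. Versions, strand setting and the handling of reads that match several places are not given in the sources used here. No values had been normalized, and each column was matched to its sample through the labels, with 0 columns of no sample.

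The 9 genes, the gene lists and the tests were chosen with earlier results of these data known. Gene identifiers were matched to GENCODE M21 (38872 of 39056 found). Genes with at least 500 counts in all and a count in at least 3 libraries were kept (14072). Counts were scaled with TMM factors, and levels are CPM on TMM-scaled library sizes, with a prior count of 1 where on the log2 scale. Each comparison was fitted to its 2 groups with the quasi-likelihood test of edgeR 4.0.16 (R 4.3.3, limma 3.58.1), and the differences of effects between TRAP and total-RNA over all 22 libraries with 6 group means. Adjusted p-values are Benjamini-Hochberg over all genes tested, with a threshold of 0.05, and the scripts were tested on simulated counts. P-values of comparisons within 1 RNA type measure the spread between mice. In fits that join TRAP and total-RNA, both libraries of a mouse entered as separate samples, without a mouse block.

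All 9 genes were named. Of other lists, at most 4 called genes with the smallest p in EtOH against Control in total-RNA and no overlap of the groups were named, apart from items that are not reported here, together with counts of 5 or fewer, Camk2a, and the genes with the highest Pearson r to the mean of the 9. Both libraries of a mouse carry its animal number, by which they were paired. Their deviations from the group means correlated in all 11 mice (r = 0.102 to 0.622). Correlations of unmatched libraries were not computed, so these r do not test the pairing. A fit with the mouse as replicate block was an alternative. Other alternatives were edgeR's exact test, the likelihood ratio test for the effect differences, DESeq2 1.42.0, RLE factors, library size only, no filter, the filterByExpr filter, a single fit over 22 libraries, a threshold of 0.01, a prior count of 0.25, Spearman's rho, and leaving out each library.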

Additional observations from a re-analysis of the deposited data

How the results depend on the processing

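The fall of 7 genes in EtOH total-RNA kept its direction in every alternative run, and 7 genes were called in each of the 7 fits that left out a library (7 to 7), while the number of all genes called lower moved from 1210 to between 417 and 1873. When all 22 libraries were fitted together, so that TRAP libraries shared the estimate of the spread, 2 of the 9 genes were called (P2ry12, adjusted p = 0.0317, and P2ry13, 0.0477, edgeR), and 46 of all genes were called lower. The cause was not tested. The 9 genes gave 0 calls in every alternative of the EtOH + ABT-888 TRAP comparison with Control, of both comparisons with EtOH, and of the effect differences. In EtOH TRAP, 1 gene was called, 2 with no filter on low counts, 0 at a threshold of 0.01, and 0 to 2 when a library was left out. In EtOH + ABT-888 total-RNA, 0 were called, 1 with edgeR's exact test (P2ry12, adjusted p = 0.0058), 1 with DESeq2 (P2ry13, 0.0405), 2 with no filter, and 0 to 4 when a library was left out. Lower in TRAP than in total-RNA were 9 to 9 genes in Control, 8 to 9 in EtOH and 6 to 8 in EtOH + ABT-888 when a library was left out. With the mouse as replicate block these counts were 9, 9 and 9 and those of the effect differences 0 and 0, and beyond Cx3cr1 and Trem2 the block changed no call. At a threshold of 0.01, the TRAP against total-RNA calls of Tmem119 (adjusted p = 0.0166) and C1qa (0.0244, edgeR) in EtOH were lost. So was that of Siglech in EtOH + ABT-888 (adjusted p = 0.0233, edgeR). Uncalled values near 0 changed sign: C1qb in EtOH total-RNA was 0.005034 with library size only and 0.0002449 with filterByExpr. Leaving out a library gave log2 fold changes from −0.12 to 0.24 for C1qa and from −0.24 to 0.18 for C1qb in EtOH total-RNA, from −0.27 to 0.0931 and from −0.14 to 0.01418 in EtOH + ABT-888 total-RNA, and from −0.24 to 1.53 for C1qa in EtOH TRAP. Over all genes, the number called lower moved from 347 to between 29 and 819 in EtOH TRAP, from 41 to between 0 and 238 in EtOH + ABT-888 TRAP and from 12 to between 0 and 430 in EtOH + ABT-888 total-RNA, over all alternatives run. Over all comparisons of the 9 genes 51 changes of sign were counted, near 0 and farther from it, each in a value not called before or after. Of the 10 genes most like the 9, 3 (22 libraries) and 4 (11 total-RNA libraries) were shared with Spearman's rho. TRAP values of 0 to 11 reads limit what could be detected there.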
